A study of Homo sapiens with 12 samples.

Results

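The genes described here are 9 genes of the MHC class I antigen presentation pathway, chosen by gene name from a list: HLA-B, HLA-C, HLA-E, HLA-F, B2M, TAP1, TAP2, PSMB8 and PSMB9. These genes and the lists of partner genes were chosen with earlier results of these data known. Counts set beside the shares of all genes are therefore a description and no test of the genes as a set. All 9 of the 9 were found among the 58302 genes of the expression tables, of which 36305 were above 0 somewhere in the series, and all 9 were abundant enough to be tested in both lines (at least 0.5 FPKM after scaling in at least 3 libraries). The study knocked down NUF2, a kinetochore protein of the NDC80 complex, in 769-P and ACHN, established human renal carcinoma cell lines that the labels describe as clear cell renal cell carcinoma (ccRCC) cells. Each line was transfected with siRNA against NUF2 (siNUF2) or with control siRNA (siControl) and total RNA was taken after 48 h, with 3 libraries in each of the 4 groups. The labels give no other agent in any group, and per the study the knockdowns that followed its first trials used a mixture of siRNAs against NUF2 (siRNA2 and siRNA3). Each line is 1 cell line, so that line, culture medium and library set cannot be told apart between 769-P and ACHN. The labels call the libraries repeats without saying that they came from separate cultures, so that p-values measure only the spread between these libraries, which may be technical.

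MHC class I molecules show fragments of the proteins a cell makes to CD8 T cells and natural killer cells. The heavy chains (HLA-B, HLA-C, HLA-E and HLA-F here) need beta-2 microglobulin, the product of B2M, to reach the surface in stable form. PSMB8 and PSMB9 are catalytic subunits of the immunoproteasome, which cuts proteins into peptides, and TAP1 and TAP2 together form the transporter that carries peptides into the endoplasmic reticulum. Most of these genes are known to be inducible by interferon, through factors such as IRF1 and the class I transactivator NLRC5.

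Of the 9 genes, 8 lie on chromosome 6 and B2M lies on chromosome 15 (GRCh38, GENCODE release 29). TAP2, PSMB8, PSMB9 and TAP1 are neighbours, within 32821833 to 32859585 on chromosome 6. RefSeq promoter windows (GRCh38.p14) were matched for 8 of the 9 genes, HLA-E being the exception, with 2 windows each for TAP1 and PSMB8. By these RefSeq windows, the outermost start of TAP1, on the reverse strand, and the start of PSMB9, on the forward strand, are 488 bases apart and read away from each other, whereas the longer PSMB9 gene of GENCODE begins at 32844136. The 250 bases before the gene start are shown for 5 genes, namely 1 heavy chain, the light chain, the transporter subunits and 1 proteasome subunit. Those of HLA-C, HLA-F and PSMB9 are not shown. Capitals mark matches, on either strand, to GAAANNGAA (the core of the interferon-stimulated response element), CCAAT (the NF-Y box) and TGACG (part of the cAMP response element). Matches that overlap each other are in 1 run of capitals.
HLA-B, chr6:31357180-31357429, - strand: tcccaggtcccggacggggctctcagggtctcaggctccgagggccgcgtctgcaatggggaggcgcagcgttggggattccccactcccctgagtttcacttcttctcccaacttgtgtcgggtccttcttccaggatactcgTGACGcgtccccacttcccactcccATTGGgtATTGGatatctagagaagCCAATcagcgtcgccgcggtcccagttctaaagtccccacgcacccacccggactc
B2M, chr15:44711267-44711516, + strand: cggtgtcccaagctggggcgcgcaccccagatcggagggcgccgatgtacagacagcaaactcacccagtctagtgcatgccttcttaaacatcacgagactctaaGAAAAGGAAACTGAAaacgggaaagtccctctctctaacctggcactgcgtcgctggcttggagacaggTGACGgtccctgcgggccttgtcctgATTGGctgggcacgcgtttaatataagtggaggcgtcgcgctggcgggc
TAP1, chr6:32853705-32853954, - strand: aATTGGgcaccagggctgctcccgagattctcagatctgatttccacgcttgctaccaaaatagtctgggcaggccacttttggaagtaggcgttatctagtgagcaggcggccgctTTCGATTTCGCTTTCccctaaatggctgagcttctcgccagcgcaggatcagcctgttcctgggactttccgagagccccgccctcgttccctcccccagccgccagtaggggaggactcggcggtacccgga
TAP2, chr6:32838740-32838989, - strand: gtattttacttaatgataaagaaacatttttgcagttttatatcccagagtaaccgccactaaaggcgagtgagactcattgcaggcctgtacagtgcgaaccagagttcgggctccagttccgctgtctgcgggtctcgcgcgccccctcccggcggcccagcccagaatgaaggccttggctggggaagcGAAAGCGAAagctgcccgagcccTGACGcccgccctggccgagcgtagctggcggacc
PSMB8, chr6:32844680-32844929, - strand: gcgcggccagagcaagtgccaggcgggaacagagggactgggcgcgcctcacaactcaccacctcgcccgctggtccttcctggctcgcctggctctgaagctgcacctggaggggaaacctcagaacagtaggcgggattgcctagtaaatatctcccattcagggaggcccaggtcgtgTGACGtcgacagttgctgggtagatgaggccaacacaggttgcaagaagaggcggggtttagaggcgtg
CCAAT was found before 6 of the 8 genes (HLA-B, HLA-C, HLA-F, B2M, TAP1 and PSMB9), TGACG before 6 (HLA-B, HLA-C, B2M, TAP2, PSMB8 and PSMB9) and GAAANNGAA before 4 (HLA-F, B2M, TAP1 and TAP2). The outermost window of TAP1 overlaps that of PSMB9, and their CCAAT matches are the same letters read on opposite strands. HLA-B and HLA-C carried 3 and 4 CCAAT matches, and B2M and TAP1 2 overlapping GAAANNGAA matches each. Of the 35116 windows of this length in the table, 32.0% held CCAAT, 21.2% TGACG and 6.88% GAAANNGAA. These shares are per window, whereas the counts above are per gene, some with 2 windows. The matches are given as a description of the letters and not as sites of binding. Only exact matches were sought, so that a gene without a match may still hold a variant of the element.

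The values are FPKM, fragments per length of exon and size of library, as the authors deposited them and rescaled here between the libraries of each line. Printed levels therefore carry no rescaling between 769-P and ACHN. The fit of the lines under siControl was scaled over the siControl libraries of both lines, and that of the difference of response over all libraries. The FPKM had been scaled to between 28768675 and 38542660 fragments per library, and between 107 reads (HLA-F) and 26716 reads (HLA-C) lay behind each value of the 6 genes for which whole reads could be recovered (HLA-B, HLA-C, HLA-E, HLA-F, TAP2 and PSMB9). NUF2 was checked first. It was at 4.19, 3.87 and 3.02 FPKM in the siNUF2 libraries of 769-P against 19.5, 17.7 and 17.6 under siControl, and at 2.17, 5.16 and 4.27 against 11.4, 15.0 and 14.8 in ACHN, so that the siNUF2 libraries lay below the siControl libraries in both lines. The log2 fold change of NUF2 was -2.29 in 769-P (SE 0.127, adjusted p = 0.00126 by limma) and -1.88 in ACHN (SE 0.323, adjusted p = 0.231 by limma, and 0.0121 with the replicate number as a block). The renal lineage genes PAX8 and PAX2 and the epithelial genes KRT8 and KRT18 were expressed in both lines, and CDH6 was at or near 0 in ACHN only. CA9, a hypoxia-induced gene that marks most ccRCC, was near 0 in both lines (0.0253 FPKM in 769-P and 0.0393 in ACHN under siControl). NDUFA4L2 and EGLN3, likewise induced by hypoxia, were at 0.0271 and 0.246 FPKM in 769-P and at 3.28 and 0.00774 in ACHN. Apart from NDUFA4L2 in ACHN, these hypoxia-induced genes were low and did not mark the labelled cell type in these cultures. The identity of the lines was not tested. None of the 7 markers of immune cells passed the filter in either line, and CD3E, of T cells, was at 0 in every library, with PTPRC, MS4A1, CD14, LYZ, CSF1R and NKG7 at no more than 0.317 FPKM in the mean of any group.

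Under siControl, the heavy chain HLA-C was the most abundant of the genes per length in both lines, and HLA-F the least. This order depends on the exon length taken for each gene, which was 2507 bases for HLA-C and 6079 for B2M in GENCODE. In the siControl libraries of 769-P, 12049, 14577 and 13786 reads lay behind HLA-C. For B2M the reads were about 12155, 14529 and 15100, since whole reads were not obtained. Whether the order holds for numbers of transcripts was not tested. In 769-P the order ran from HLA-C at 171 ± 8.54 FPKM (SD, n = 3) through B2M at 72.7 ± 4.21, HLA-B at 40.9 ± 6.68, HLA-E at 38.2 ± 9.33, PSMB8 at 25.3 ± 1.30, TAP1 at 6.67 ± 0.440, PSMB9 at 4.57 ± 0.679 and TAP2 at 3.13 ± 0.429 to HLA-F at 0.875 ± 0.113. Of these neighbours only HLA-B and HLA-E overlapped between libraries. In ACHN the order was HLA-C at 263 ± 36.1 FPKM, B2M at 106 ± 27.7, HLA-B at 78.5 ± 17.5, HLA-E at 77.1 ± 31.7, PSMB8 at 41.3 ± 9.34, PSMB9 at 30.0 ± 8.44, TAP1 at 14.0 ± 1.58, TAP2 at 6.33 ± 2.23 and HLA-F at 2.30 ± 0.819. There, the libraries of each neighbour from B2M to PSMB9 overlapped with those of the next, so that only HLA-C, TAP1, TAP2 and HLA-F were set apart from the genes above and below them. PSMB9, the partner of PSMB8 in the immunoproteasome, was the gene whose place changed, from below TAP1 in 769-P to above it in ACHN.

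**Figure D1:**
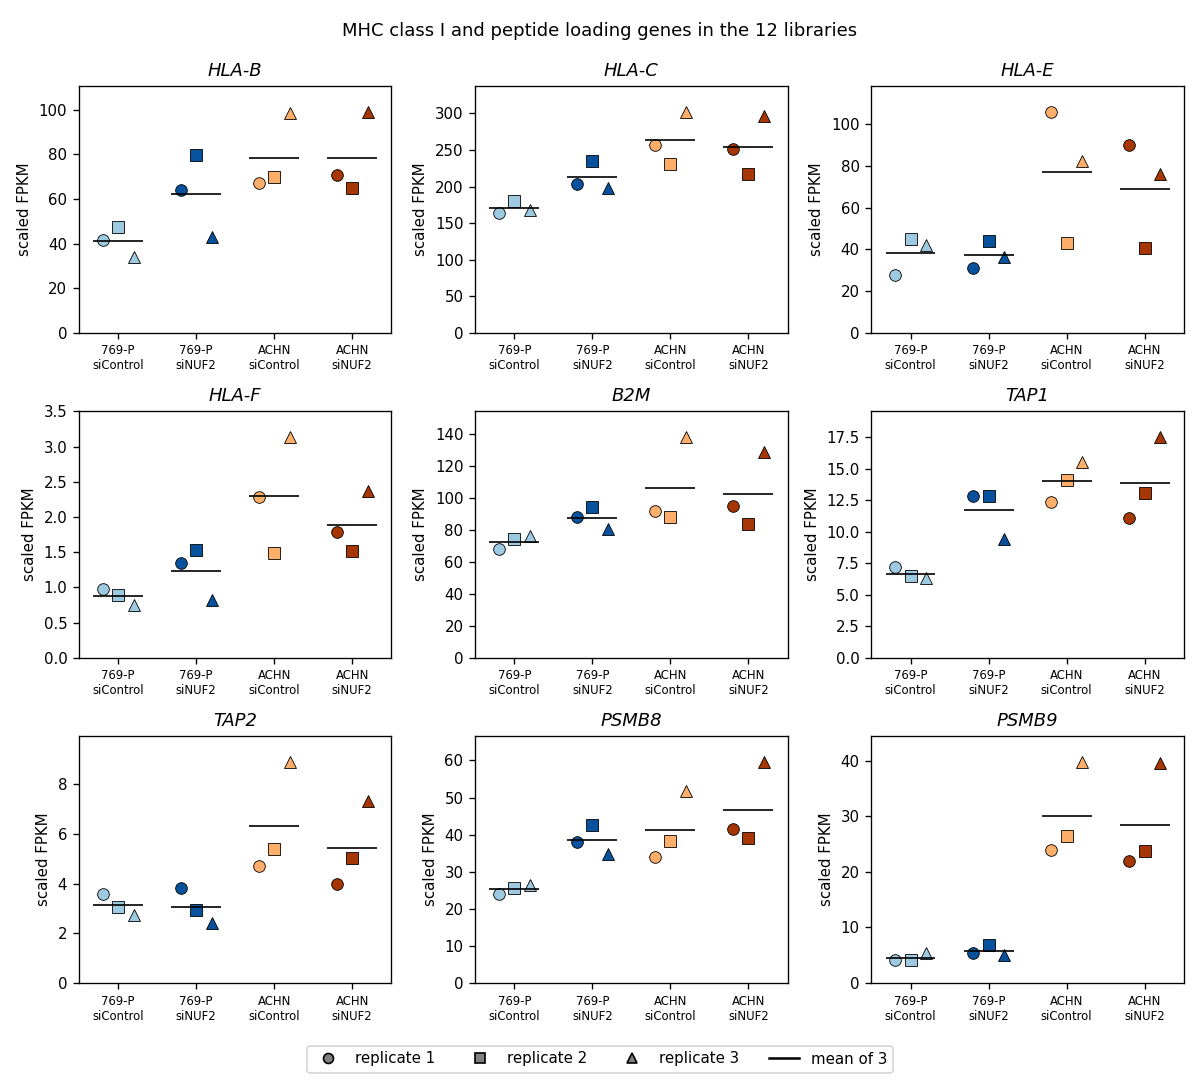
Scaled FPKM (vertical axes, linear from 0) of each of the 9 genes in the 12 libraries, by cell line and siRNA, with 1 symbol per replicate number and a bar at the mean of 3. TAP1, PSMB8, HLA-C and B2M lie higher in all 3 siNUF2 libraries of 769-P than in the siControl libraries, and in ACHN replicate 3 of both groups is the highest for 8 of the 9 genes, HLA-E being the exception.

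ACHN cells had more of these transcripts than 769-P cells under control siRNA. A level is a mean over a culture, so that fewer expressing cells and less RNA per cell cannot be told apart. Under siControl, 8 of the 9 genes were higher in ACHN at an adjusted p under 0.05 (limma on log2(FPKM + 0.1), Benjamini-Hochberg over 15379 genes), where 30.0% of all genes tested were higher and 31.4% lower. PSMB9 differed most. It was at 24.0, 26.4 and 39.7 FPKM in ACHN against 4.18, 4.17 and 5.35 in 769-P, a log2 difference of 2.65 (SE 0.211, adjusted p = 7.62e-05 by limma) or 6.26-fold. PSMB8 differed by only 0.66 on the same scale (SE 0.162, adjusted p = 0.0107 by limma), and the third immunoproteasome subunit, PSMB10, by 1.05 with an adjusted p of 0.0851 by limma. Of their constitutive counterparts, which hold the same places in the standard proteasome, PSMB5 and PSMB6 differed by 0.08 and 0.10 and did not pass the test, and PSMB7 was lower in ACHN by a log2 difference of -0.49 (adjusted p = 0.00773 by limma). The ratio of PSMB9 to PSMB6 was 0.0526 ± 0.00519 in 769-P and 0.322 ± 0.0995 in ACHN, and the ratio of PSMB8 to PSMB5 was 0.395 ± 0.0347 and 0.605 ± 0.163 (SD, n = 3).

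The heavy chains, the light chain and the transporter were nearer to each other. The log2 differences between ACHN and 769-P were 0.60 for HLA-C, 0.91 for HLA-B, 1.23 for HLA-F, 0.49 for B2M, 1.04 for TAP1 and 0.93 for TAP2, and the 3 libraries of ACHN lay above the 3 of 769-P for each of them. B2M was the closest of them to the threshold (adjusted p = 0.0487 by limma), and its call was lost in 7 of the 16 other settings, which included leaving out each siControl library of 769-P in turn or replicate 3 of ACHN. TAP2 lost its call only without siControl replicate 3 of 769-P (adjusted p = 0.0530 by limma). HLA-E, which presents leader peptides of other class I chains to natural killer cells, had a difference of 0.93 but did not pass (SE 0.353, adjusted p = 0.0557 by limma). It was at 106, 43.2 and 82.3 FPKM in ACHN and at 27.5, 44.8 and 42.2 in 769-P. Its libraries overlapped. Without ACHN replicate 2, the difference was 1.29 (adjusted p = 0.00401 by limma). Among the regulators, NLRC5 was higher in ACHN by 1.40 (adjusted p = 0.00119 by limma), IRF1 by 1.40 (adjusted p = 0.0430) and RFX5 by 0.38 (adjusted p = 0.0401), so that 3 of 13 were higher. NFYA and NFYC, subunits of the CCAAT-binding factor, were lower (log2 differences of -0.88 and -0.27, adjusted p = 0.00232 and 0.0458 by limma), against the 30.0% and 31.4% of all genes given above. Of the interferon signalling genes reported here STAT2 was higher by 1.00 (adjusted p = 0.00198 by limma).

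In 769-P cells, knockdown of NUF2 was accompanied by higher levels of part of this pathway. Of the 9 genes, 2 rose at an adjusted p under 0.05 and none fell, where 5.42% of the 14157 genes tested rose and 4.55% fell. The labels number the libraries without stating a pairing. Same-numbered libraries of a line deviated together from their group means in these data, and the numbers were on that ground taken as pairs. With the number as a block in the fit 5 of the 9 rose and none fell, against 13.9% and 13.7% of all genes. The median log2 fold change of the 9 was 0.34, against -0.01 over all genes tested. Since the 9 were chosen with earlier results of these data known, the counts and shares are a description.

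TAP1, a subunit of the peptide transporter, changed most. It was at 12.9, 12.9 and 9.45 FPKM in the siNUF2 libraries and at 7.17, 6.47 and 6.36 in the siControl libraries, and the lowest siNUF2 library was above the highest siControl library. The log2 fold change was 0.79 (SE 0.133, adjusted p = 0.0174 by limma), or 1.73-fold. PSMB8 was at 38.0, 42.6 and 34.7 FPKM under siNUF2 and at 23.9, 25.6 and 26.5 under siControl, again without overlap. Its log2 fold change was 0.60 (SE 0.0905, adjusted p = 0.0135 by limma), or 1.51-fold. The exact permutation test of each gene gave p = 0.1, the smallest that 3 libraries against 3 can give. The call of TAP1 was lost without siNUF2 replicate 2, siControl replicate 2 or siControl replicate 3 (adjusted p of 0.0541, 0.0625 and 0.0649 by limma), and that of PSMB8 without siControl replicate 2 (adjusted p = 0.0504).

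The heavy chains HLA-B and HLA-C and the light chain gene B2M did not pass in that fit and did with the replicate block. HLA-C was at 203, 236 and 199 FPKM under siNUF2 against 163, 180 and 168 under siControl, which did not overlap, and its log2 fold change was 0.31 (SE 0.0823, adjusted p = 0.0574 by limma, and 0.00990 with the block). B2M was at 88.1, 94.1 and 80.7 FPKM against 68.0, 74.0 and 76.1, with a log2 fold change of 0.27 (SE 0.0795, adjusted p = 0.0790 by limma, and 0.0428 with the block). HLA-B, at 64.2, 79.9 and 43.0 FPKM against 41.5, 47.4 and 34.0, overlapped between the groups. Its spread lay between the numbers rather than within them, since the difference between same-numbered libraries was 0.63, 0.75 and 0.34 on the log2 scale. The log2 fold change of HLA-B was 0.57 (SE 0.228, adjusted p = 0.160 by limma, and 0.0124 with the block).

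The remaining 4 genes passed neither fit. HLA-F was at 1.34, 1.54 and 0.827 FPKM under siNUF2 against 0.979, 0.891 and 0.755 (log2 fold change 0.42, SE 0.241, adjusted p = 0.310 by limma). PSMB9 was at 5.48, 6.91 and 5.10 against 4.18, 4.17 and 5.35 (0.34, SE 0.148, adjusted p = 0.188), with replicate 3 alone going the other way. TAP2 was at 3.83, 2.93 and 2.40 FPKM against 3.58, 3.07 and 2.73, and HLA-E at 31.2, 43.9 and 36.1 against 27.5, 44.8 and 42.2. For these, the log2 fold changes were -0.05 and -0.03, with 95% intervals from -0.48 to 0.38 and from -0.51 to 0.46, or from -0.25 to 0.15 and from -0.24 to 0.19 with the block. The ratio of TAP1 to TAP2 was 3.36, 4.39 and 3.93 under siNUF2 against 2.00, 2.11 and 2.33 under siControl, so that it was higher under siNUF2 in all 3 pairs of libraries although both products are needed for transport.

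In 769-P, 4 of the 9 genes did not overlap between the groups, all higher under siNUF2, against 17.0% of all genes tested. In 6 of the 9 every same-numbered pair was higher under siNUF2, against 31.3% of all genes. The log2 difference was lowest in pair 3 for all 9 genes. For TAP1 it was 0.83, 0.98 and 0.56 in pairs 1, 2 and 3, and for PSMB8 0.67, 0.74 and 0.39. NUF2 itself was also lowest in siNUF2 replicate 3. With pair 3 left out and the block kept, 6 of the 9 genes were called higher, with PSMB9 added, and without pair 2 only TAP1 was (adjusted p = 0.0391 by limma). The share of all genes called in these fits is not given here. The counts therefore do not show whether the 9 genes moved more than the rest.

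**Figure D2:**
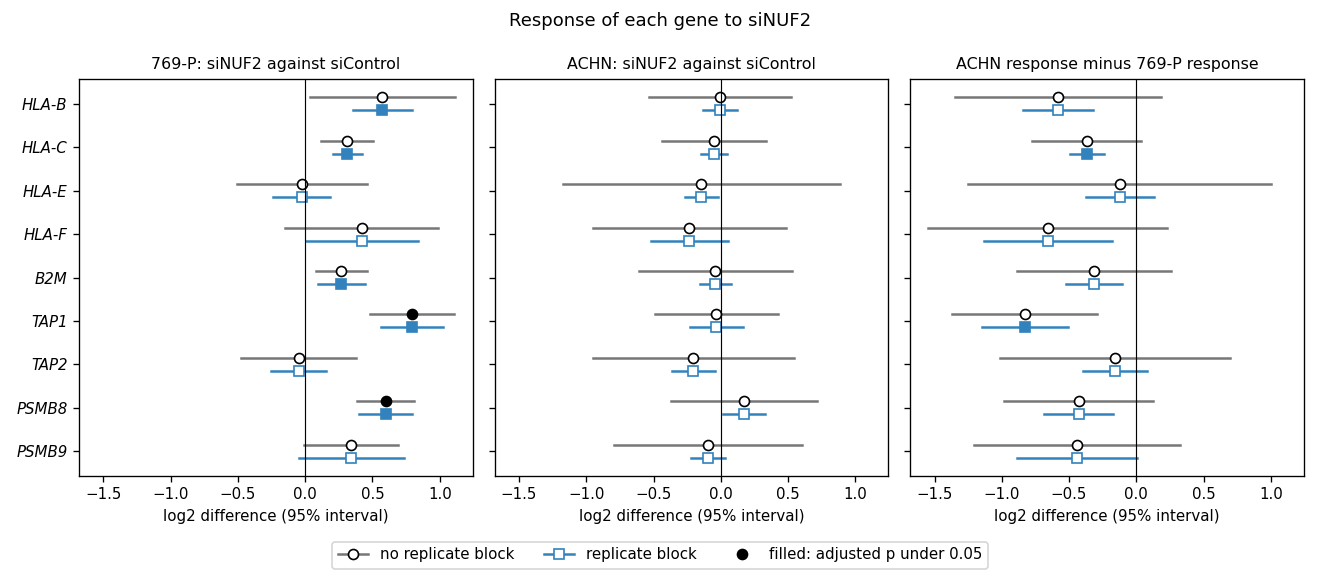
Log2 difference of each gene with its 95% interval, in 769-P (left), in ACHN (middle) and as the ACHN response minus the 769-P response (right), without (circles) and with (squares) the replicate block, filled where the adjusted p was under 0.05. In 769-P the intervals with the block, which are not adjusted for the number of genes, lie above 0 for HLA-B, HLA-C, HLA-F, B2M, TAP1 and PSMB8, and in ACHN above 0 for PSMB8 and below 0 for HLA-E and TAP2. With the block 5 symbols are filled in 769-P and none in ACHN.

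In ACHN cells none of the 9 genes was called in either direction. No gene of the 15111 tested was, so that the background was 0% (limma, lowest adjusted p 0.113, with 1225 genes and none of the 9 at an unadjusted p under 0.05, and 0 calls also by limma-voom on reads recovered from the FPKM). Even NUF2, whose groups did not overlap, was not called in that fit (log2 fold change -1.88, adjusted p = 0.231 by limma). The study reported changed genes in ACHN by DESeq2. A missing call in that fit therefore does not show that a gene did not respond. With the replicate block 7.01% of all genes rose and 5.23% fell, and again none of the 9 was called. The log2 fold changes ran from -0.23 for HLA-F to 0.17 for PSMB8, with a median of -0.05. TAP1 was at 11.1, 13.1 and 17.5 FPKM under siNUF2 and at 12.4, 14.1 and 15.5 under siControl, a log2 fold change of -0.03 with a 95% interval from -0.23 to 0.17 with the block. PSMB8 was at 41.6, 39.0 and 59.4 FPKM against 34.0, 38.2 and 51.9 and was the only one of the 9 that was higher under siNUF2 in all 3 pairs (0.17, SE 0.0614 and adjusted p = 0.129 by limma with the block). For HLA-C (251, 216 and 297 FPKM against 257, 231 and 302), HLA-E, TAP2 and PSMB9 every pair was lower under siNUF2. The lowest adjusted p among these 4 with the block was 0.0947, for TAP2. In all genes tested, 28.6% were higher and 26.2% lower in every pair. The groups overlapped for all 9 genes, whereas 8.60% of the genes tested were set apart above and 5.92% below.

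The libraries of ACHN differed among themselves by more than the siRNA moved these genes. Replicate 3 was the highest of its group for 8 of the 9 genes under both siRNAs, with B2M for example at 94.7, 83.9 and 129 FPKM under siNUF2 and 91.9, 88.0 and 138 under siControl. HLA-E followed another order, with 90.0, 40.7 and 76.0 FPKM under siNUF2 and 106, 43.2 and 82.3 under siControl, so that the highest library was 2.21 and 2.45 times the lowest. Neither order was that of NUF2, which in ACHN was highest in replicate 2 and lowest in replicate 1 under both siRNAs. What the numbers stand for is not stated in the sources used here, and the part that a shared culture or preparation has in them was not tested.

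**Figure D3:**
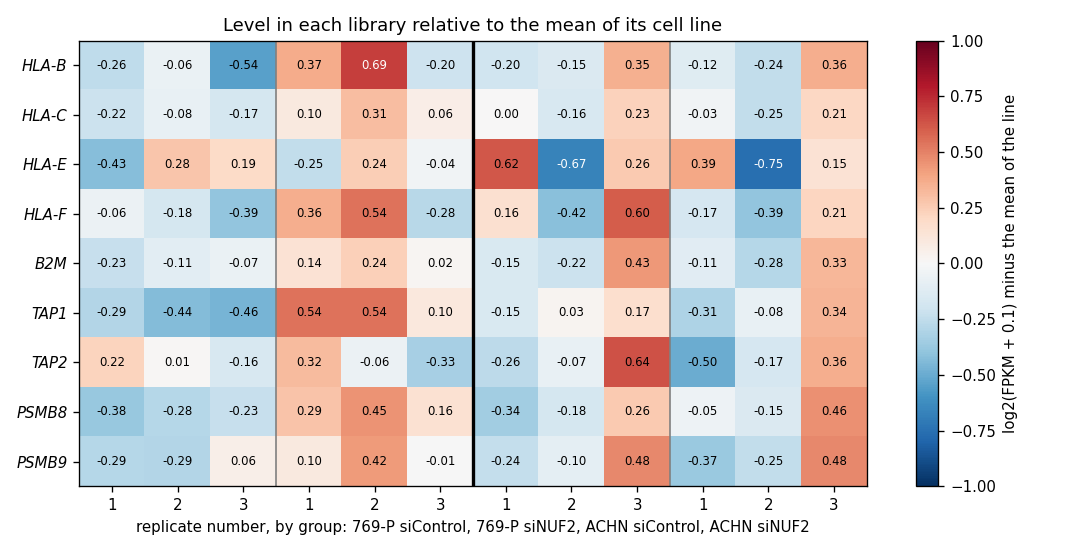
log2(FPKM + 0.1) of each gene (rows) in each of the 12 libraries (columns, by group and replicate number), less the mean of that gene in its cell line, with the value printed in each cell and colour from -1 (blue) to 1 (red). In ACHN (right of the thick line) same-numbered columns of siControl and siNUF2 resemble each other, with HLA-E at 0.62 and 0.39 in replicate 1 and -0.67 and -0.75 in replicate 2, whereas in 769-P the columns of TAP1 and PSMB8 change sign with the siRNA.

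The difference of response between the lines was tested itself, by an interaction term in a model of all 12 libraries. It was below 0 for all 9 genes, with a median of -0.43 over the 9, in a fit of 16570 genes, but none was called. No gene of the series was, so that the background was again 0% (limma, lowest adjusted p 0.796, with 773 genes and 1 of the 9, TAP1, at an unadjusted p under 0.05, and 0 calls by limma-voom). With the replicate block 1.40% of all genes were called, among them HLA-C and TAP1. The response of TAP1 was lower in ACHN by a log2 difference of -0.83 (SE 0.134 and adjusted p = 0.0468 by limma with the block), and that of HLA-C by -0.37 (SE 0.0525, adjusted p = 0.0385). HLA-B (-0.58, adjusted p = 0.0619 with the block), PSMB8 (-0.43, adjusted p = 0.103) and B2M (-0.31, adjusted p = 0.123) did not pass in that fit. The adjusted p of TAP1 with the block and 1 pair of a line left out was at least 0.116 in 5 of the 6 cases and 0.0450 without pair 3 of 769-P, and HLA-C likewise kept its call only there (adjusted p = 0.0416 by limma).

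The genes that work beside these 9 were grouped into lists by role. In the peptide loading complex and trimming list, 2 of 7 genes rose in 769-P and none fell, where 5.42% and 4.55% of all genes did (13.9% and 13.7% with the block). These were CALR, a chaperone that holds the heavy chain in the loading complex, with a log2 fold change of 0.40 (adjusted p = 0.0247 by limma), and PDIA3, the thiol oxidoreductase bound to tapasin, with 0.35 (adjusted p = 0.0491). Both are also general chaperones of the endoplasmic reticulum. With the block ERAP2, a peptide trimming aminopeptidase, was also higher (0.24, adjusted p = 0.0361) and TAPBPL, the tapasin-like editor, lower (-0.29, adjusted p = 0.0441). Tapasin (TAPBP) was at 34.5 FPKM against 34.4. In ACHN none of the 7 was called, and with the block PDIA3 was higher (0.20, adjusted p = 0.0417) and TAPBP lower (-0.22, adjusted p = 0.0340). The median of the list was 0.01 in 769-P and -0.06 in ACHN.

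Among the immunoproteasome subunit PSMB10, the activators PSME1 and PSME2 and the assembly factor POMP, 1 of 4 rose in 769-P, where 5.42% of all genes did. It was PSME1, a subunit of the proteasome activator PA28, with a log2 fold change of 0.30 (adjusted p = 0.0456 by limma), and in ACHN it was at 0.01 (adjusted p = 0.998). For PSME1 the difference of response between the lines was not called without the block or with it (adjusted p = 0.153 by limma with the block). PSMB10 was at 5.80 FPKM against 6.90 in 769-P (-0.21, adjusted p = 0.491), and in ACHN it was lower only with the block (-0.23, adjusted p = 0.0473). None of the 3 constitutive catalytic subunits was called in either line with or without the block, at log2 fold changes between -0.10 and 0.12 in 769-P. The ratio of PSMB8 to PSMB5, the subunit whose place it takes, was 0.527, 0.646 and 0.483 under siNUF2 against 0.358, 0.428 and 0.398 under siControl in 769-P, without overlap, and 0.600, 0.565 and 0.852 against 0.469, 0.561 and 0.785 in ACHN.

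Of the 13 regulators of MHC class I transcription, 1 rose and 2 fell in 769-P, against 5.42% and 4.55% of all genes, and with the block 2 were higher and 4 lower, against 13.9% and 13.7%. ATF1, which binds the cAMP response element, rose (0.73, adjusted p = 0.00777 by limma), whereas CREB1, of the same family, fell (-0.43, adjusted p = 0.0253), as did NFYB, a subunit of the CCAAT-binding factor (-0.37, adjusted p = 0.0376). NLRC5, the class I transactivator, was at 1.35, 1.35 and 0.680 FPKM under siNUF2 against 0.505, 0.587 and 0.480 under siControl, without overlap, with a log2 fold change of 0.92 (adjusted p = 0.0851, and 0.0371 with the block), and NFYC and NFKB1 were lower with the block only (-0.29 and -0.26, adjusted p = 0.0256 and 0.0187). IRF1, a transcription factor of the interferon response, was at 2.36 FPKM against 3.26 (-0.44, adjusted p = 0.253, and 0.0520 with the block). In ACHN ATF1 was higher with the block (0.71, adjusted p = 0.0117), IRF2 was lower (-0.28, adjusted p = 0.0378) and NLRC5 was at -0.04 (adjusted p = 0.818 with the block). For NLRC5 the difference of response between the lines was not called without the block or with it (adjusted p = 0.0937 by limma with the block). The median of the list was -0.14 in 769-P and -0.09 in ACHN.

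Of the 12 interferon signalling genes, 9 passed the filter in 769-P, of which JAK1, a kinase of the interferon receptors, rose (0.32, adjusted p = 0.0439 by limma). The receptor chains IFNAR1 and IFNGR2 were lower with the block (-0.27 and -0.23, adjusted p = 0.0205 and 0.0441). Of all genes tested in 769-P, 5.42% rose without the block and 13.7% were lower with it. In ACHN, STAT2, a signal transducer of type I interferon, was lower with the block (-0.35, adjusted p = 0.0344). The 3 interferon genes of the list did not pass the filter. IFNG was at 0 in all 12 libraries, IFNB1 had 0, 4 and 1 reads under siNUF2 and 0, 2 and 0 under siControl in 769-P, and IFNL1 had 10, 6 and 4 against 1, 1 and 0. Both were at 0 in every library of ACHN.

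**Figure D4:**
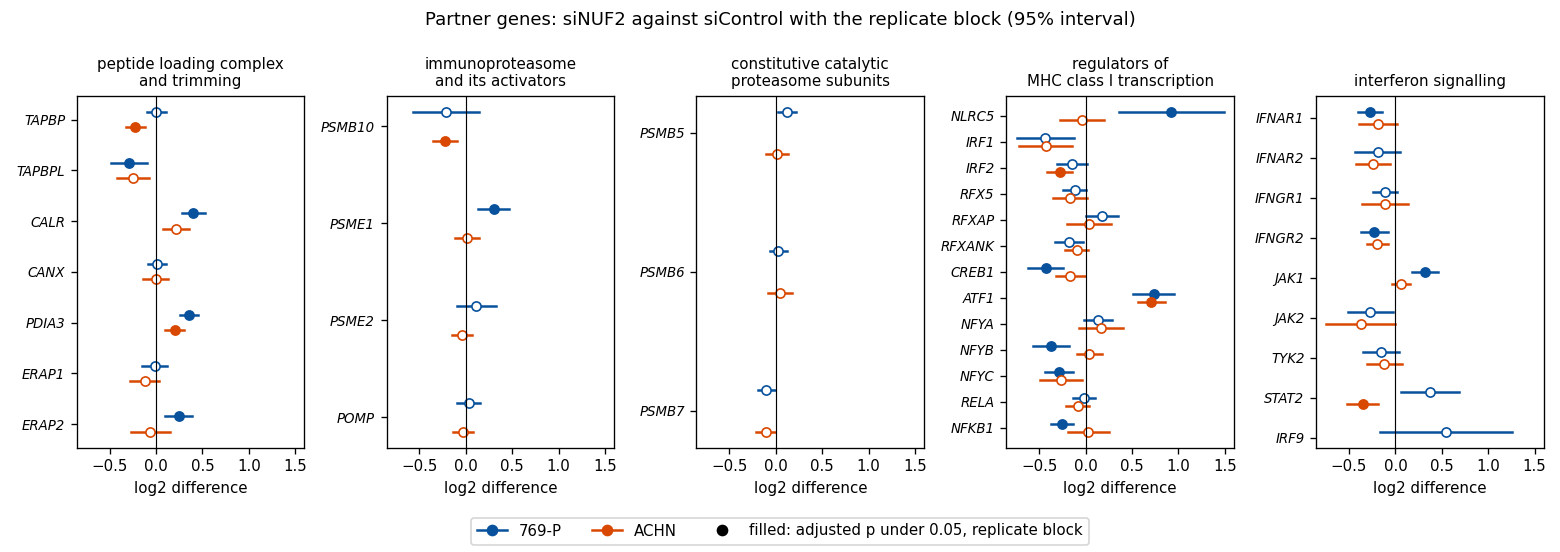
Log2 difference between siNUF2 and siControl with its 95% interval, with the replicate block, for the genes of 5 lists (panels) that passed the filter, in 769-P (blue) and ACHN (orange), filled where the adjusted p was under 0.05. NLRC5 lies at 0.92 in 769-P and at -0.04 in ACHN, whereas ATF1 lies at 0.73 and 0.71 and the constitutive proteasome subunits lie near 0 in both. The difference of response of NLRC5 between the lines was not called (adjusted p = 0.0937 by limma with the block).

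The class I-like genes and ligands of natural killer cell receptors had 6 of 9 genes tested in 769-P, of which ULBP3, a ligand of NKG2D, fell (-0.73, adjusted p = 0.0440 by limma) and MR1, which presents vitamin metabolites, was higher with the block only (0.36, adjusted p = 0.0274). In that line 4.55% of all genes tested fell without the block and 13.9% were higher with it. MICB and ULBP1, other NKG2D ligands, were near 0 in 769-P (0.0658 and 0.0542 FPKM under siControl) and expressed in ACHN (15.2 and 4.68 FPKM), where none of the 8 genes tested was called with or without the block. MHC class II genes were at no more than 0.976 FPKM in any group mean of 769-P, where HLA-DMB, a class II peptide editor, was lower with the block (0.345 FPKM against 0.747, adjusted p = 0.0365). In ACHN CD74, the invariant chain, was at 45.8 FPKM under siControl, HLA-DPA1 at 4.01 and HLA-DPB1 at 5.91, while HLA-DRA was at 0. With the block CD74 and HLA-DRB1 were lower under siNUF2 in ACHN (-0.33 and -0.62, adjusted p = 0.0199 and 0.0426). CIITA, the class II transactivator, was at no more than 0.115 FPKM in any group mean. Of the renal epithelial markers PAX8 fell in 769-P (-0.44, adjusted p = 0.0339), where with the block PAX2, KRT8 and KRT18 were higher (0.34, 0.17 and 0.26) and CDH6 and CDH16 lower (-0.55 and -0.61), and in ACHN KRT8 and KRT18 were higher with the block (0.62 and 0.60, adjusted p = 0.0121 and 0.0113). What part the change in these markers has in the values above was not tested.

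Across the 12 libraries, each centred on its line, the 9 genes were scored by the mean of their standardised log2 values. HLA-E (Pearson r 0.365) and TAP2 (0.624) had the least in common with that score, and the other 7 had r between 0.804 (TAP1) and 0.961 (B2M). Each of the 9 is itself part of the score, which raises its r, so that these values cannot be set against those of non-members. Of the 12933 genes tested in both lines, SAMD9L (r 0.971), PARP14 (0.970), DDX60 (0.966), TRANK1 (0.953) and PSME1 (0.941) were the 5 non-members most like it. The libraries share lines, siRNAs and replicate numbers, and the r values are a description with no test. The score was highest in ACHN replicate 3 (1.06 under siNUF2 and 1.24 under siControl) and in siNUF2 replicates 2 and 1 of 769-P (1.20 and 0.71), so that it followed the siRNA in one line and the replicate number in the other.

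Some of the values share exon positions with other genes in GENCODE release 29, and whether reads were counted by strand is not given in the sources used here. Of the exon bases of HLA-B 18.9% lay in exons of other genes (HLA-C and an antisense gene), of HLA-F 28.5% (HLA-F-AS1 and other genes on the opposite strand), of TAP2 32.3%, of PSMB8 20.6% (PSMB8-AS1 and PSMB9, both on the opposite strand), of TAP1 9.49% (PSMB8-AS1, on the opposite strand), of PSMB9 5.66% and of HLA-C 1.40%. None of B2M or HLA-E was shared. PSMB8-AS1 was at 0.640 FPKM under siNUF2 and 0.396 under siControl in 769-P, against 38.5 and 25.3 for PSMB8. The class I heavy chains are also alike in sequence and vary between people, so that reads can be lost or moved between them, and the levels of HLA-B, HLA-C, HLA-E and HLA-F relative to each other or between 769-P and ACHN carry that uncertainty.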

How the data were processed

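Total RNA of 12 libraries was sequenced on an Illumina instrument (NovaSeq per the study's methods). The authors filtered reads with fastp, aligned and counted them with HISAT2 2.0.5 and featureCounts 1.5.0-p3 on hg38 (per the submitters' processing notes), and deposited 1 FPKM per gene and library; annotation and strand setting are not given in the sources used here. The authors' DESeq2 comparisons were not used. FPKM are not counts, so log2(FPKM + 0.1) was fitted with limma 3.58.1 (lmFit, eBayes with trend) in R 4.3.3, after scaling by a trimmed mean of log ratios (30% and 5% trimmed), for genes reaching 0.5 scaled FPKM in 3 or more libraries of the fit. The lines had separate fits, Benjamini-Hochberg adjustment ran over all genes tested, and the threshold was 0.05. Fold changes are on the log2(FPKM + 0.1) scale and understate those of low genes. Permutation tests were exact and two-sided.

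Depth was 28768675 to 38542660 fragments per library, from GENCODE 29 exon lengths, with which 96.8% to 97.1% of values under 100 reads were whole within 0.05 reads; replicate spread limits the precision. Whole reads were not obtained for B2M, TAP1 and PSMB8. The closest replicates of a group differed by a chi-square of 14.4 per gene, so none was a copy. Same-numbered libraries of a line deviated together from their group means (Pearson r across genes in 769-P 0.358, 0.272 and 0.188, and for ACHN 0.648, 0.735 and 0.462), and the numbers of the labels were therefore taken to pair siNUF2 and siControl within a line; values with the replicate block stand beside those whose call they change.

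The 9 genes and the lists of partner genes were chosen with earlier results of these data known. Named were the 9 genes, NUF2, list genes with an adjusted p under 0.05 in either line with or without the block, up to 4 of each list with the lowest p in 769-P, absent defining markers, and the 5 non-members with the highest r; IRF1, PSMB8-AS1 and further list genes were named after their values were seen. Some genes of the lists are not reported here. Promoters are RefSeq windows on GRCh38.p14. The fits were tested on simulated data. The alternatives were pseudocounts of 1 and 0.01, no filter and a filter of FPKM of at least 1, deposited FPKM unscaled, upper-quartile and median-ratio scaling, the replicate block, 1 fit of all 12 libraries and each library left out; limma-voom on recovered reads and leaving out each same-numbered pair with the block were added after seeing the data. Python 3.11.15, NumPy 2.4.6, pandas 2.3.3 and matplotlib 3.10.9 were used.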

Additional observations from a re-analysis of the deposited data

Results flagged for a closer look

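Only with the replicate block was HLA-C called as differing between the lines in its response to siNUF2. All 3 same-numbered pairs were higher under siNUF2 in 769-P (0.31, 0.39 and 0.24 on the log2 scale), against 31.3% of all genes. In ACHN all 3 were lower (-0.04, -0.09 and -0.03), against 26.2% of all genes. The response in ACHN was lower by a log2 difference of -0.37 (adjusted p = 0.0385 by limma with the replicate block, and not called without it). TAP1 was also called in that test with the block, at -0.83 (adjusted p = 0.0468 by limma), with differences of 0.83, 0.98 and 0.56 in the 769-P pairs, and of -0.16, -0.11 and 0.17 in those of ACHN. ACHN had no change past the threshold for either gene. The difference of response was called in 2 of 27 alternative settings for each of them, with the block and with the block without pair 3 of 769-P.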

How the results depend on the processing

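The count of the 9 genes called higher in 769-P was 2, and moved to 5 with the replicate block and to 1 in 1 fit of all 12 libraries, where PSMB8 lost its call (adjusted p = 0.0811 by limma). It ran from 0 to 6 as libraries or same-numbered pairs were left out, with 0 without siControl replicate 2, 1 without siNUF2 replicate 2, siControl replicate 3 or pair 2, 4 without pair 1 and 6 without pair 3 (pairs with the block). The count called lower in the difference of response was 0, was 2 with the replicate block, and ran from 0 to 3 with libraries or pairs left out, the 3 being without pair 3 of 769-P. In 769-P, 3 genes were called by limma-voom, HLA-C being added. Apart from the fits with the replicate block on all libraries, the share of all genes called is not given beside these counts. They therefore do not show whether the 9 genes moved more than the rest. The counts in ACHN and between the lines under siControl stayed within 1.5 times under every alternative. Across lines, same-numbered siControl libraries did not deviate together (r -0.0693, -0.00321 and 0.0869), and the block changed no call of the 9 genes there. Among the partner genes it changed those of PSMB10 (adjusted p = 0.0222), ULBP3 (0.0449), ULBP2 (0.0604), HFE (0.0337) and NFYC (0.0653, all by limma).

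Direction was lost only for genes not called. In ACHN, upper-quartile scaling put HLA-B at 0.0116. With libraries or pairs left out, the log2 fold changes in ACHN ran over -0.19 to 0.17 (HLA-B), -0.17 to 0.0624 (HLA-C), -0.51 to 0.20 (HLA-E), -0.50 to 0.0101 (HLA-F), -0.22 to 0.16 (B2M), -0.21 to 0.11 (TAP1), -0.43 to 0.0642 (TAP2), -0.0139 to 0.35 (PSMB8) and -0.36 to 0.12 (PSMB9). In 769-P they ran over -0.24 to 0.10 for HLA-E and -0.22 to 0.11 for TAP2, and in the difference of response over -0.49 to 0.21 for HLA-E and -0.39 to 0.11 for TAP2. Of the values of single genes under the alternatives, 655 kept their direction and side of the threshold, 20 passed it, 14 lost it and 37 changed sign. The causes of these changes were not tested.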
